A study of Mus musculus with 7 samples.

Results

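The proteasome subunit genes are the protein-coding genes on chromosomes 1 to 19 whose symbols start with Psma, Psmb, Psmc, Psmd, Psme, Psmf or Psmg followed by a number. This rule, applied to the GENCODE M21 annotation of mouse build mm10, gave 49 of 20807 protein-coding genes. The proteasome is the protease that degrades proteins tagged with ubiquitin. Its core particle, the 20S, is a barrel of alpha rings around beta rings, and the beta rings carry the cutting sites. The 19S regulatory particle caps the barrel, binds ubiquitinated proteins, unfolds them with a ring of ATPases and feeds them inside. Other caps, the activators, open the barrel without the 19S, and a set of chaperones assembles each particle. Most of these genes are used by every cell type, among them muscle stem cells (MuSCs), the resident stem cells that rebuild skeletal muscle.

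Of the 49 genes, 2 came in by name alone: Psmc3ip encodes a factor of meiotic recombination, and Psme2b is an intronless relative of Psme2. Without them, 47 remained. Psma8 and Psmb11 encode core subunits whose known expression is restricted to the testis and the thymus.

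The study asked where TRF2, a telomere-binding protein whose gene is Terf2, sits in the genome of mouse MuSCs, and how chromatin opening changes without it. CUT&Tag uses an antibody to bring a transposase to the sites of a protein, and was done in 2 libraries for TRF2 and in 1 with control IgG. Their labels give wild-type MuSCs of the tibialis anterior muscle, 3 days after damage by the toxin notexin. The methods give an earlier time for CUT&Tag, the gastrocnemius beside the tibialis anterior, and mice whose MuSCs carried Pax7-driven Cre and a tdTomato reporter. ATAC-seq, which reads open chromatin through the cuts of an untethered transposase, was done in 2 Control and 2 TRF2KO libraries of hind limb MuSCs labelled 0 h. In the study's mice, floxed TRF2 was deleted with tamoxifen through Pax7-CreERT2, a Cre active in Pax7-expressing cells, on a C57BL/6 background, and MuSCs were sorted by flow cytometry. TRF2KO libraries were grouped by their titles, since their genotype label says wild type. The labels give no age and do not say whether the libraries came from separate animals, so p-values measure the spread between these libraries. TRF2 was mapped in injured muscle and chromatin opening at 0 h, so the readouts came from MuSCs in different states. In such bulk libraries a shift in which cells were sorted and a change within each cell cannot be told apart.

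The values were peaks called by the program MACS in each library, and each peak carried a fold, its fragment pileup at the summit over the local background. A gene start was counted as having a peak where the peak came within 1 kb of it. The lists held 12290 and 15479 TRF2 peaks, 656 IgG peaks and 84102 to 100521 ATAC peaks, with a median of 9 fragments at a CUT&Tag summit and 27 to 31 at an ATAC summit. The median ATAC background was 4.56 fragments in Control replicate 2 and 3.35 to 3.41 in the others, which lowers the raw folds of that library, so ATAC peaks were also ranked as percentiles of the fold within their own list. The peak at the start of Terf2 itself had ATAC folds of 54.3 and 48.4 in Control against 21.5 and 18.6 in TRF2KO (log2 difference -1.44, limma adjusted p = 0.000436). Start sites of 8 of 8 MuSC marker genes had a peak in all 4 ATAC libraries, and those of 4 haematopoietic markers, among them Ptprc, which encodes CD45, had none in any. Markers of other cells were open too: all 4 libraries had a peak at 3 of 4 endothelial (Pecam1, Kdr and Tek), 2 of 3 fibro-adipogenic (Pdgfra and Dpt) and 3 of 4 myofibre markers (Ckm, Mylpf and Tnnt3). These peaks differed in strength. Their mean Control percentiles were 29.3, 42.2 and 77.5, then 65.4 and 98.0, then 72.3, 99.9 and 76.9, in the same order of genes. Dpt had folds of 118 and 102 in Control, 28.1 in TRF2KO 1 and 100.1 in TRF2KO 2. Among the MuSC markers, Itga7 had 73.4 and 68.0 in Control, 35.0 in TRF2KO 1 and 56.1 in TRF2KO 2. Its log2 difference was -0.79 (limma adjusted p = 0.166), the lowest of the 8, whose highest was 0.19. No marker was called by limma, where 0.388% of all fitted starts were called lower and 0.155% higher in TRF2KO. An open start does not measure expression, and the part of other cells in the results was not tested.

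The stretches of 150 bases that run up to the start of 8 genes are printed because the results turn on them. Psmc6, Psmd12 and Psmg1 are among the 5 members with the highest TRF2 folds, and Psme2 had the most accessible start. Psmd7 and Psmd2 carried several of the motifs searched. Psmb5 and Psmb6, which encode catalytic subunits of the core, had no TRF2 peak. Each was read from GRCm38.p6, whose chromosome coordinates mm10 shares, 5′ to 3′ on the strand of the gene, and ends 1 base before the GENCODE gene start. None overlaps an annotated exon. Capitals mark motif matches on either strand: CCGGAA (the core of ETS factor sites), TGACNNNGC (antioxidant response element), AAGATGGCG (YY1), TTAGGG (the telomeric unit) and a G-quadruplex pattern, in which 4 runs of 3 or more G lie close together.
Psmc6, chr14:45329638-45329787, plus strand: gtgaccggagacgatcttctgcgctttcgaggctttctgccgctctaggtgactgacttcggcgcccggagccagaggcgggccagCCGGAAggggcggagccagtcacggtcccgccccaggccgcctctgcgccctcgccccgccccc
Psmd12, chr11:107479334-107479483, plus strand: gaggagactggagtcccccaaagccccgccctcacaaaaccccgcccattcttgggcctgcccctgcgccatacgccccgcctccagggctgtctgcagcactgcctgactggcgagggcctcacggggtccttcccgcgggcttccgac
Psmg1, chr16:95990961-95991110, minus strand: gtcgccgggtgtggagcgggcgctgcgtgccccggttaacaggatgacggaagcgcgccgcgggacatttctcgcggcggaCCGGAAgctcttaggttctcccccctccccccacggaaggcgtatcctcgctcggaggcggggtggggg
Psme2, chr14:55591114-55591263, minus strand: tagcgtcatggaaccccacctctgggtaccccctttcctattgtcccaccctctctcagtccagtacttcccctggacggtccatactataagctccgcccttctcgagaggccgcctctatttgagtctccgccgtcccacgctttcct
Psmd7, chr8:107588465-107588614, minus strand: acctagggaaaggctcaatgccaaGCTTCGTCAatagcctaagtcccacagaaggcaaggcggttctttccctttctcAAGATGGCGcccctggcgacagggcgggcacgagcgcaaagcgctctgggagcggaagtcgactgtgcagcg
Psmd2, chr16:20651502-20651651, plus strand: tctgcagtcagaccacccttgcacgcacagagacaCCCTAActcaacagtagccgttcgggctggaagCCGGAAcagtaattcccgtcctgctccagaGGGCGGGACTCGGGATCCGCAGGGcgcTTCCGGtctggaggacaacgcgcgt
Psmb6, chr11:70525217-70525366, plus strand: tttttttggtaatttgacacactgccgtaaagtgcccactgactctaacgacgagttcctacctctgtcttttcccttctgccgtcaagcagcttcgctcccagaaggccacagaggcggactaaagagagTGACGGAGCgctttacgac
Psmb5, chr14:54618023-54618172, minus strand: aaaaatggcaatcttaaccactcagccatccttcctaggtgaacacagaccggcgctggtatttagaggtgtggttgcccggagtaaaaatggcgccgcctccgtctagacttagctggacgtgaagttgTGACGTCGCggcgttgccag

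Most member starts were open in every library. An ATAC peak lay within 1 kb of the gene start in all 4 libraries for 42 of the 49 members (85.7%, exact Clopper-Pearson 95% interval 72.8 to 94.1%), against 61.9% of all coding genes. All 7 genes of the common beta ring, the 3 immunoproteasome genes, the 6 ATPase genes and the 11 other 19S subunit genes were among the 42. Among the 42, the median percentile was 91.7, 93.7, 93.4 and 93.1 in Control 1, Control 2, TRF2KO 1 and TRF2KO 2, against 88.6, 90.1, 89.1 and 88.8 over all coding starts with a peak in all 4. The highest-ranked member was Psme2, which encodes a subunit of the interferon-inducible PA28 activator. Its folds were 173, 157, 184 and 172 in the same order of libraries, within the top percent of every list. Psmb3, a structural beta subunit, followed at 151, 133, 164 and 145, and Psmc4, an ATPase of the 19S base, at 140, 119, 150 and 133. At the other end stood Psmg3, a chaperone of alpha ring assembly, with 15.2, 16.9, 18.1 and 16.8 and percentiles of 66.3, 75.3, 71.5 and 71.3. The highest fold among the 42 members was 9.26 to 11.4 times the lowest within a library. Member peaks were centred on the start. Their summits lay a median of 53.5 to 60 bp from it over the 4 libraries, against 96 to 102 bp over all coding starts, and their median width was 1212 to 1239 bp against 1325 to 1452 bp. An exception was Psmb10, an immunoproteasome subunit, whose peak reached the window but had its summit 1281 to 1320 bp inside the annotated start.

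The 7 members without a peak in all 4 libraries were Psma6, Psma8, Psmb11, Psmd5, Psmd9, Psmf1 and Psme2b. The first gene start in the annotation was not the open one for several of them. For Psma6, the remaining alpha ring gene, a start 14553 bp further into the gene (position 55398775 of chromosome 12) had folds of 104, 94.5, 111 and 98.7. For Psmd5, a chaperone of 19S assembly, a start 4006 bp inside (position 34870962 of chromosome 2) had 116, 101.1, 117 and 100.8, while the outermost start had a weak peak in Control 2 (4.14) and TRF2KO 1 (3.20) only. For Psmf1, the inhibitor PI31, the open start lay 2876 bp inside, with 16.8, 16.6, 19.7 and 17.5. For Psmd9, another 19S chaperone, it lay 58777 bp inside, with 29.7, 31.5, 32.0 and 27.2. The RefSeq promoter table for GRCm38.p6, matched by symbol to 41 members, also places a start of Psma6, Psmd5, Psmf1 and Psmd9 at or within 50 bp of these inner positions. SEACR, another peak caller, did place a region at the outer start of Psmd9 in all 4 libraries. Counted over all annotated transcript starts, 47 of 49 members had a peak in all 4 libraries, against 66.1% of coding genes. The 2 left were the testis-restricted Psma8 and the intronless Psme2b. The thymus-restricted Psmb11 had a peak at an inner start, 3877 bp in, of 12.9 and 12.4 in Control against 8.0 and 7.26 in TRF2KO. That inner start was not part of the genotype fit, and the difference was not tested.

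**Figure D1:**
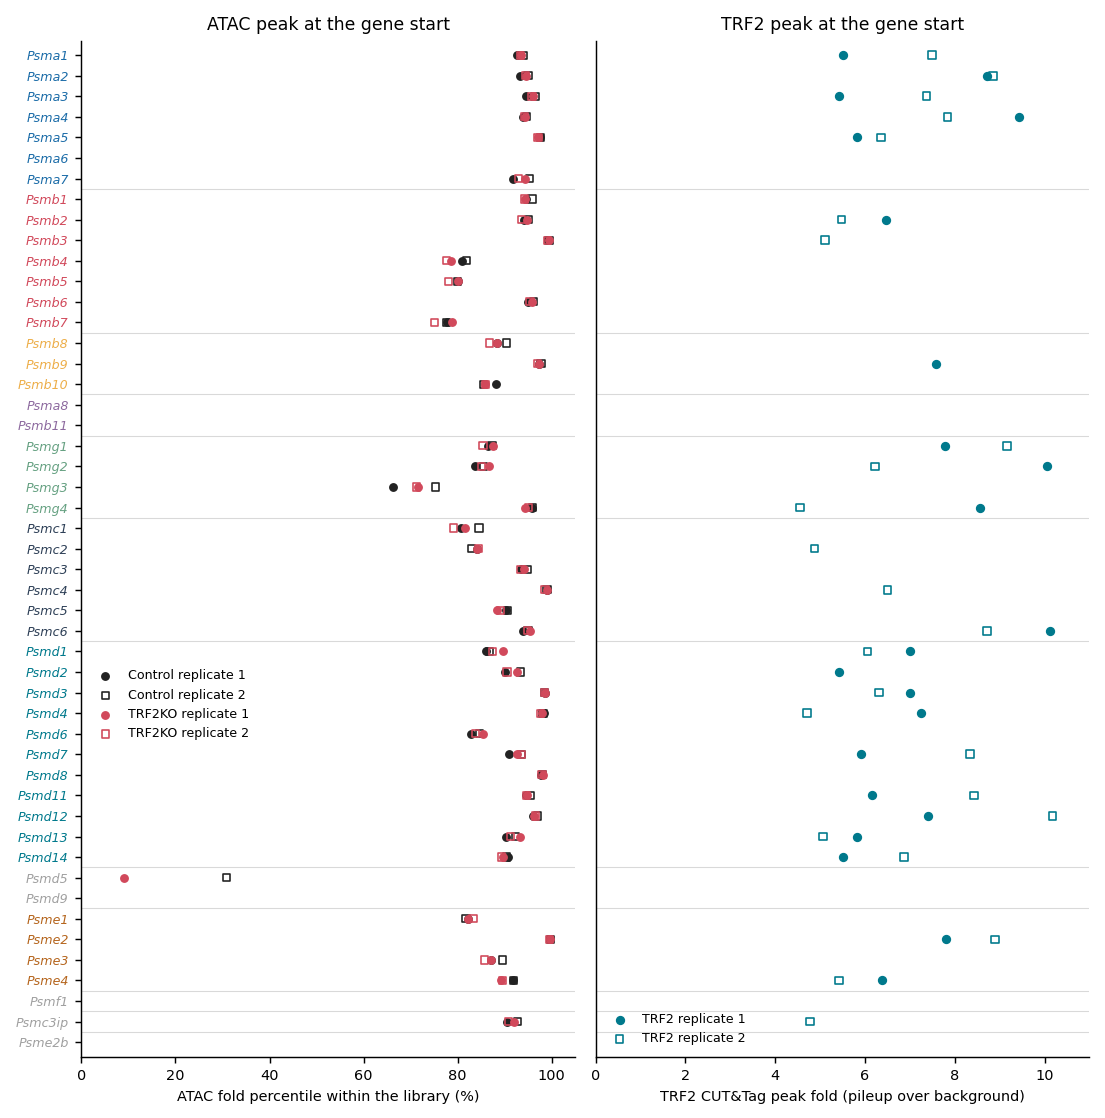
Left, the percentile of each member's ATAC peak fold within its library (x axis, %), 1 row per gene, with circles and squares for replicates 1 and 2, black for Control and red for TRF2KO. Right, the fold of the TRF2 peak at the same gene start in each TRF2 replicate. Rows are grouped and coloured by role, and a missing symbol means no peak within 1 kb. The 4 ATAC values of a gene lie close together, between 66.3 and 99.8% for the 42 genes with a peak in every library, and TRF2 peaks in both replicates stand in 5 of 7 alpha ring rows and 8 of 11 non-ATPase 19S rows.

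Both TRF2 libraries had a peak within 1 kb of the start at 20 of 49 members (40.8%, exact 95% interval 27.0 to 55.8%), against 23.3% of all coding genes. No member had an IgG peak (0 of 49, interval up to 7.25%), where 0.101% of all coding genes did. Among the 42 with an ATAC peak in all 4 libraries the share was 47.6% (20 of 42, interval 32.0 to 63.6%), against 37.5% of all such coding starts, a value inside that interval. In these lists, more accessible starts had TRF2 peaks more often. With coding starts divided into quintiles by their mean Control ATAC percentile, the share with TRF2 in both replicates was 4.65% in the lowest quintile, then 16.4%, 33.8%, 52.5% and 80.1% in the highest. Members had TRF2 at 0 of 1, 1 of 8, 5 of 11, 10 of 14 and 4 of 8 of their starts in the same quintiles. The shares of all coding starts, applied to the members' own quintiles, add up to 18.8 members, beside the 20 seen. The count over all members was thus near that of coding starts of like ATAC rank. Over any annotated transcript start, TRF2 in both replicates was at 23 of 49 members against 25.9% of coding genes, with Psma6, Psmb1 and Psmd5 added. The members in the highest quintile without TRF2 in both replicates were Psmb3, Psmb9, Psmc4 and Psmd8.

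**Figure D2:**
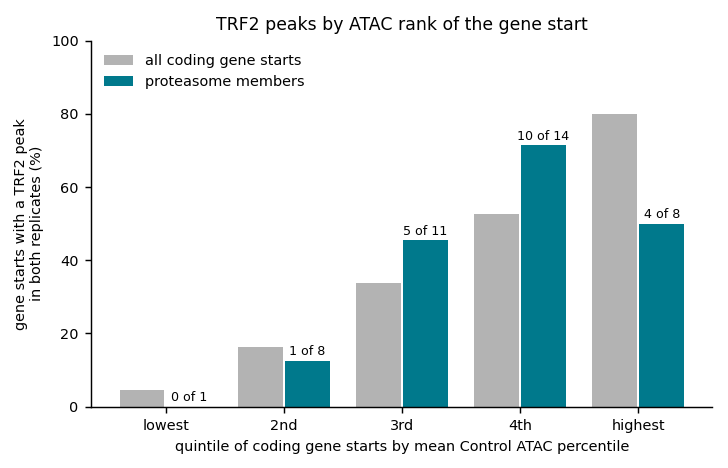
Share of gene starts with a TRF2 peak in both replicates (y axis, %), by quintile of mean Control ATAC percentile (x axis), in grey for all coding starts with an ATAC peak in every library and in teal for members, with member counts above the bars. The grey share climbs from 4.65 to 80.1%, and the members run from 0 of 1 to 10 of 14 and then 4 of 8.

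Counts by role are given beside the number that the shares of all coding starts add up to over the same quintiles of ATAC rank, and differences between roles were not tested. In the alpha ring, which forms the gated entrance of the barrel, 5 of 7 genes had TRF2 in both replicates (Psma1 to Psma5), beside 3.43 from the quintile shares. Psma7 had no TRF2 peak at its start, and Psma6 had TRF2 folds of 5.29 and 5.32 at its open inner start. In the beta ring 1 of 7 genes had TRF2 in both, beside 2.87. It was Psmb2, and Psmb3 had a peak in replicate 2 only. The genes of the standard catalytic subunits Psmb5, Psmb6 and Psmb7 had none in either. All 6 alpha starts with a peak were in the 2 highest quintiles, while 3 of the 7 beta starts, Psmb4, Psmb5 and Psmb7, were in the second lowest. The interferon-inducible catalytic subunits Psmb8, Psmb9 and Psmb10 had 0 of 3, beside 1.48, with a peak at Psmb9 in replicate 1 only (7.57). The start of Psmb9 lies 211 bp from that of Tap1 on the other strand, whose product carries peptides into the endoplasmic reticulum for antigen presentation.

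Of the 6 ATPase genes only Psmc6 had TRF2 in both replicates, beside 2.52 from the quintile shares, while Psmc2 and Psmc4 had a peak in replicate 2 alone. Of the 11 other 19S subunit genes, 8 had TRF2 in both, beside 5.49. They were Psmd1, the scaffold of the base, Psmd4, a ubiquitin receptor, Psmd14, the deubiquitinase of the lid, and the lid subunits Psmd3, Psmd7, Psmd11, Psmd12 and Psmd13. Psmd2 had a peak in replicate 1 only (5.42), and Psmd6 and Psmd8 had none. Among 4 activator genes, TRF2 lay at Psme2 and at Psme4, which encodes PA200, and not at Psme1 or Psme3, 2 genes beside 1.64. Among the chaperones of core assembly, TRF2 lay at Psmg1, Psmg2 and Psmg4 and not at Psmg3, 3 genes beside 1.07.

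The highest mean TRF2 fold belonged to Psmc6, at 10.1 in replicate 1 and 8.71 in replicate 2, from 16 and 13 fragments at the summit. Psmd12 had 7.41 and 10.2, Psma2 8.71 and 8.86, Psma4 9.42 and 7.84, and Psmg1 7.79 and 9.17. The order within this set is within the spread of the replicates, since the SD over 2 replicates reached 1.96 for Psmd12. Psmg2 (10.1 and 6.22) and Psmg4 (8.56 and 4.55) differed most between replicates in the same direction. Over the 20 genes the summits held 8 to 18 fragments in replicate 1 and 6 to 21 in replicate 2, so a fold rests on few fragments. The median fold was 7.0 and 7.12, against 6.49 and 6.86 over all coding starts with TRF2 in both. In each of the 20, both TRF2 peaks overlapped each other and the ATAC peak of Control 1, and their summits lay a median of 66 bp apart. Over all coding starts with TRF2 in both replicates, the 2 TRF2 peaks overlapped each other at 4667 of 4843 (96.4%). At the 20 members the TRF2 summits were within 461 bp of the gene start in replicate 1 and 320 bp in replicate 2. Psmd13, Psmd11 and Psmd1 had their replicate 1 summit furthest inside the gene, at 461, 387 and 360 bp, and Psmd3 had both of its summits upstream, at 189 and 320 bp before the start.

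**Figure D3:**
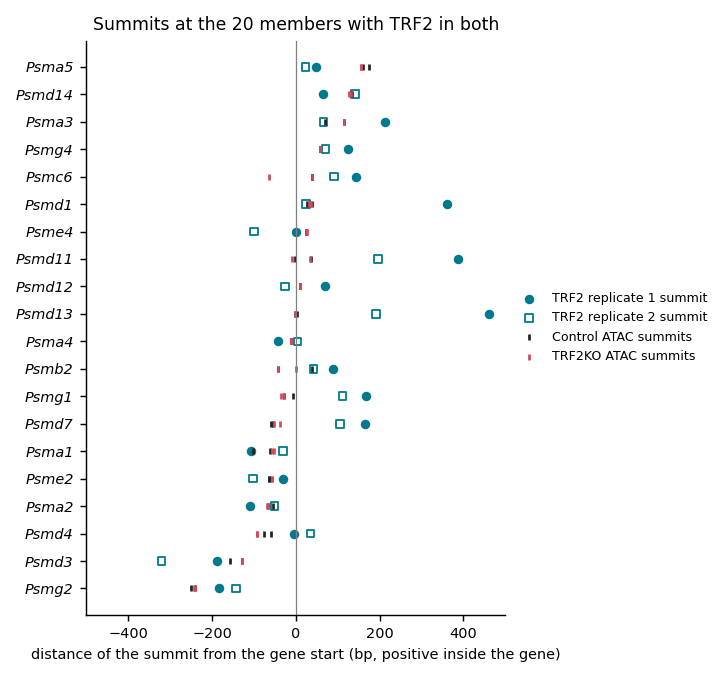
Distance of TRF2 summits (teal circles, replicate 1, and open squares, replicate 2) and ATAC summits (black ticks, Control, and red ticks, TRF2KO) from the gene start in bp, 1 row for each of the 20 members with TRF2 in both replicates, with positive distances inside the gene. TRF2 summits span -320 to 461 bp, and the ATAC ticks of the genotypes lie together for most genes.

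Several members share their promoter with a neighbour. A coding gene on the opposite strand started within 1 kb of 11 of 49 members (22.4%), against 11.2% of all coding genes. In 7 of them the starts pointed away from each other. These pairs were Psma2 with Mrpl32 at 75 bp, Psma7 with Ss18l1 at 76 bp, Psmb1 with Tbp, which encodes the TATA-binding protein, at 137 bp, Psmc2 with Dnajc2 at 32 bp, Psmc5 with Ftsj3 at 75 bp, Psmg2 with Cep76 at 263 bp and Psme2 with Rnf31 at 595 bp. Of the 7, Psma2, Psme2 and Psmg2 had TRF2 in both replicates. A peak at such a start cannot be assigned to either gene of the pair.

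No member start was called as changed in TRF2KO. The log2 fold of the peak at each coding start with a peak in all 4 ATAC libraries was quantile-normalised and compared between genotypes with limma, over 12888 starts. At a Benjamini-Hochberg adjusted p under 0.05, 50 starts (0.388%) were lower in TRF2KO and 20 (0.155%) were higher. None of the 42 members was among them. The lowest limma adjusted p of a member was 0.327. An unadjusted limma p under 0.05 was found at 3 of the 42 members and at 1701 of the 12888 starts. Log2 differences of members, TRF2KO minus Control, ran from -0.23 to 0.28 with a median of 0.01, equal to the 0.01 of all starts. They were below 0 at 20 of the 42, where 48.3% of all starts were. The 95% intervals of the 42 differences all lay between -0.47 and 0.52. Larger changes relative to other starts thus lay outside the interval of each of these 42 members, each interval being for 1 gene alone. Smaller ones could be missed with 2 libraries a genotype. The normalisation removes a shift common to all starts, so such a shift could not be seen.

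The largest positive difference was at Psmd1. Normalised folds there stood at 40.2 and 36.4 in Control against 49.7 and 43.3 in TRF2KO. The log2 difference was 0.28 (SE 0.11, 95% interval 0.04 to 0.52, limma adjusted p = 0.327). Psmd13 had 54.2 and 57.1 in Control against 67.3 and 58.1 in TRF2KO, a log2 difference of 0.17 (SE 0.09, limma adjusted p = 0.478). Psmg2 had 34.6 and 33.3 against 39.8 and 36.6, also 0.17 (SE 0.10, limma adjusted p = 0.506). In the other direction, Psme4, whose activator acts in sperm development and DNA repair, had 60.2 and 54.7 in Control and 47.7 and 50.4 in TRF2KO. Its log2 difference was -0.23 (SE 0.09, 95% interval -0.43 to -0.03, limma adjusted p = 0.334). Psmb4, a structural beta subunit, had 29.3 and 26.1 against 24.1 and 23.7, a difference of -0.21 (SE 0.12, limma adjusted p = 0.475). Psme3, the nuclear PA28 gamma activator, had 42.8 and 45.4 against 40.7 and 38.3, a difference of -0.16 (SE 0.09, limma adjusted p = 0.505). Psmc6, the member with the highest TRF2 fold, had 72.8 and 74.3 against 83.2 and 80.4, a difference of 0.15 (SE 0.07, limma adjusted p = 0.378). In each of these genes the Control and TRF2KO values did not overlap, and none passed the adjusted test. Over the 42 members, the normalised fold was lower in both TRF2KO libraries than in both Control libraries at 8, where 21.5% of all starts were, and higher in both at 10, where 22.7% of all starts were.

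**Figure D4:**
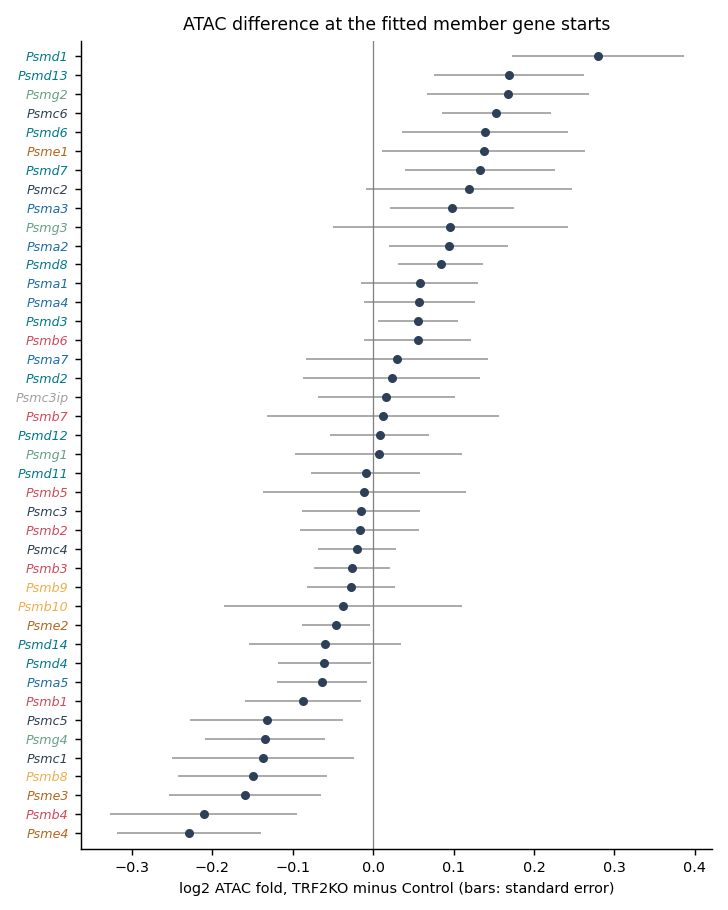
Log2 ATAC fold, TRF2KO minus Control (x axis, points with standard errors), at the 42 members with a peak in every ATAC library, ordered by the difference and coloured by role. The points run from -0.23 at Psme4 to 0.28 at Psmd1 around the line at 0.

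The median log2 difference was 0.03 over the 20 members with TRF2 in both replicates and -0.01 over the other 22, and 0.01 and 0.00 over all coding starts with and without TRF2. By role, the median difference was 0.06 in the alpha ring, -0.02 in the beta ring, -0.04 over the immunoproteasome genes, -0.02 over the ATPases, 0.06 over the other 19S subunits and -0.10 over the activators. All 3 immunoproteasome genes were below 0, where 48.3% of all starts were: Psmb8 at -0.15, Psmb10 at -0.04 and Psmb9 at -0.03. Psmb8 had normalised folds of 47.3 and 48.8 in Control against 45.2 and 41.4 in TRF2KO. The values of the genotypes overlapped at Psmb10 (46.4 and 33.1 against 37.3 and 39.1) and at Psmb9 (105.8 and 106.7 against 105.8 and 102.7). None of these genes passed the test.

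As percentiles of the fold within each list, 10 of the 42 members (Psma5, Psmb1, Psmb4, Psmb8, Psmc5, Psmd4, Psmd14, Psme3, Psme4 and Psmg4) were lower in both TRF2KO libraries than in both Control libraries, where 28.6% of all starts were. Psmc2, Psmd1 and Psme1 were higher in both, 3 of 42, where 9.14% of all starts were. Ranked among coding-start peaks only, 8 members were lower and 10 higher, where 22.0% and 23.4% of all starts were, so the split between directions depended on the ranking. With 2 libraries against 2, an exact two-sided permutation test of a single gene cannot give a p below 0.333.

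Short sequence motifs at the starts were counted in windows of 250 bases before to 50 after the gene start, on both strands. The ETS core CCGGAA, the sequence read by the ETS family of factors, was in 22 of 49 member windows (44.9%), against 17.9% of all coding windows. Among starts with an ATAC peak in all 4 libraries it was in 20 of 42 (47.6%) against 25.8%. It stands at Psmc6 and Psmg1 among the printed sequences, 64 to 59 and 69 to 64 bases before the start, and at 2 places before Psmd2. The YY1 sequence AAGATGGCG was in 3 members, Psmb6, Psmc5 and Psmd7 (6.12% against 1.70%). The antioxidant response element TGACNNNGC is read by NRF1 and NRF2, activators of proteasome genes. It was in 6 members, Psmb2, Psmb5, Psmb6, Psmc6, Psmd7 and Psmd12 (12.2% against 12.6%). In the printed sequences it stands 20 to 12 bases before the start of Psmb5, 19 to 11 before that of Psmb6 and 126 to 118 before that of Psmd7. CCAAT, the core of NF-Y sites, was in 18 members (36.7% against 38.6%), the E-box CACGTG in 6 (12.2% against 7.82%), and CGCATGCG, a site of nuclear respiratory factor 1, in Psma2 and Psmg1 (4.08% against 2.33%).

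The G-quadruplex pattern, whose loops between G runs were allowed 1 to 7 bases, was in 5 of 42 open member windows (11.9%) against 28.2%, while the median GC content was 58.3% and 60.3%. The telomeric unit TTAGGG was in 3 of 49 member windows, Psmb3, Psmd1 and Psmd2 (6.12%), against 11.4%. Among open windows it was at 7.14% against 10.9%. In the TRF2 regions themselves, taken as the union of the 2 replicate peaks, 6 of 20 members held the G-quadruplex pattern (30%), namely Psma1, Psma4, Psma5, Psmc6, Psmd1 and Psmd14, against 45.9% of all 4843 coding starts with TRF2. A single TTAGGG was in 4 of the 20 (20%) against 16.5%. None of the 20 held 3 consecutive TTAGGG units, nor did any of the 4843. These regions had a median width of 474 bp against 535 bp and a median GC content of 63.8% against 65.6%. A match is a description of the letters, and factor binding was not measured. None of the other motifs overlaps CCGGAA in the printed sequences, and all 49 windows were taken at the GENCODE gene start, including those of Psma6, Psmd5, Psmd9 and Psmf1 whose open start lies elsewhere.

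**Figure D5:**
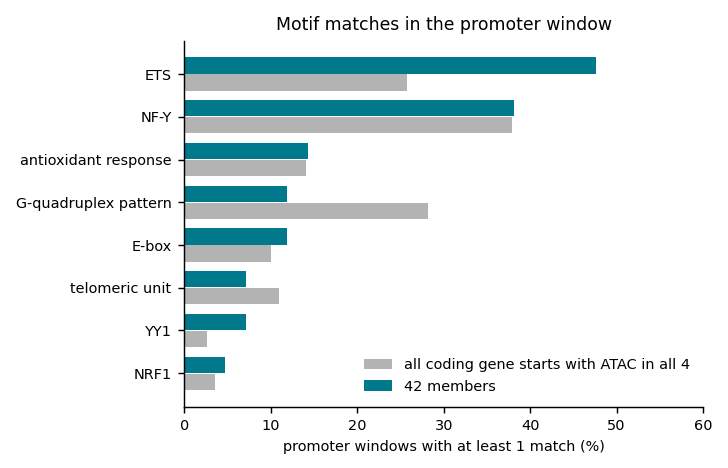
Share of promoter windows with at least 1 match to each motif (x axis, %), in teal for the 42 members and in grey for all coding starts with an ATAC peak in every library. The ETS core is at 47.6% against 25.8% and the G-quadruplex pattern at 11.9% against 28.2%.

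The wider proteasome pathway was read from 27 genes: subunits with other names, assembly factors, proteasome-bound deubiquitinases and ligases, regulators of proteasome transcription, ubiquitin shuttles, the segregase VCP with its cofactors, and the ubiquitin genes. Of these, 25 had an ATAC peak in all 4 libraries, against 61.9% of all coding genes. TRF2 was in both replicates at 12, in 1 replicate at 5 and in neither at 10. The share with TRF2 in both was 23.3% of all coding genes and 37.5% of coding starts with an ATAC peak in all 4. None of the 25 was called lower or higher by limma, where 0.388% and 0.155% of all starts were. Their log2 differences were -0.17 to 0.26, with a median of 0.03. Nfe2l1 and Nfe2l2, which encode the NRF1 and NRF2 activators of proteasome genes, had TRF2 folds of 7.50 and 6.54 and of 10.4 and 10.5, and ATAC log2 differences of 0.01 and -0.05. Ddi2 and Ngly1, which encode the protease and the deglycosylase that activate NRF1, both had TRF2 in both replicates. Rad23b, a ubiquitin shuttle, had 11.6 and 8.96, and Vcp 7.63 and 8.90. The mean Control ATAC percentiles of Nfe2l1, Nfe2l2, Rad23b and Vcp were 99.6, 98.9, 99.0 and 99.0. These lie in the highest quintile, where 80.1% of all starts had TRF2 in both replicates. Genes with no TRF2 peak included Ddi1, Maff, Nploc4, Sem1, Ubqln1, Ufd1 and Usp14, of which Ddi1 and Usp14 also had no ATAC peak at the annotated gene start.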

How the data were processed

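Peak lists of 7 libraries were analysed, and no reads. Per the labels, reads were aligned to mm10 with Bowtie2 (version 2.4.4 for CUT&Tag, 2.5.4 for ATAC), duplicates were removed with Picard 3.1.1, and peaks were called with MACS3 (3.0.0 and 3.0.2). The methods add SEACR 1.3 (stringent) and GoPeaks. Caller thresholds and any shift of ATAC cuts are not given in the sources used here. The deposited MACS lists hold a fold (ratio of pileup to background) and -log10 p and q values made by the authors. The deposited SEACR signal was used for positions only, as was GoPeaks. Consensus lists were not used. A missing peak means that it did not pass the caller's threshold.

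The strongest peak within 1 kb of each gene start (GENCODE M21) was taken. Fragments were solved from the fold and p. Genotypes were compared with limma 3.58.1 (R 4.3.3) on quantile-normalised log2 folds, with a trend in the variance. In simulated data of 12888 starts, 100% of 200 changes of 1 log2 unit were recovered, with 7 false calls. Every simulated start was given the same spread, the median over the real starts. Real starts differ in spread, so this does not give the share of such changes that the fit would find in the real libraries. Intervals of shares are exact Clopper-Pearson and cover counting error only. Named genes are the 5 members with the highest mean TRF2 fold, the 3 largest differences in each direction, members lacking an ATAC peak, the immunoproteasome, activator and tissue-restricted genes, the extremes of ATAC rank, and pathway genes without TRF2; others were named after their values were seen. Members, lists and motifs were chosen with earlier results of these data known. Some pathway genes without TRF2 are not reported here by name.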

Additional observations from a re-analysis of the deposited data

How the results depend on the processing

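Of 48 alternatives over the counts and the median of the members, 46 stayed within 1.5 times the count, or within 1 replicate SD (0.07 on the log2 scale) of the median. Inside those limits the ATAC count was 41 to 47, the TRF2 count 20 to 26, and the median, near 0, changed sign. Some alternatives could not move a value, so the tally overstates how stable the results are. No member had an IgG peak, so leaving out starts with one kept the TRF2 count. The replicate block cannot change the median, and settings that call few starts at all leave little room for a member call. With a -log10 q of at least 5, the members with TRF2 in both replicates numbered 10, against 13.0% of all coding genes. With percentiles among coding-start peaks, the members separated upwards in TRF2KO numbered 10. No member was called under any setting, while calls over all starts went from 50 lower and 20 higher to 91 and 36 with median centring, 77 and 40 with summits within 1 kb, 11 and 1 with a peak in any library (missing peaks set to the lowest fold), 8 and 0 on percentiles, and 0 to 3 in all when 1 ATAC library was left out. The limma fit with the replicate block gave 62 and 21, with 0 members called and a member median of 0.01. The replicate numbers were not shown to pair libraries, since the deviations of Control 1 and TRF2KO 1 from their group means had a correlation of -0.083 over genes. The member median ran from -0.05 to 0.05 when each ATAC library was left out, with the lone library assumed to vary like the other genotype, and was -0.17 percentile points on percentiles. Median centring gave 0.02. TRF2 summits held as few as 6 fragments.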
